A study of Mus musculus with 6 samples.

Results

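Integrins are the cell's receptors for extracellular matrix. Each is a pair of an alpha and a beta subunit, and focal adhesions are the protein plaques that form where clustered integrins are tied to actin. The genes described here were a listed set of 42, of which 40 had a probe set of their own among the 18193 genes measured: 10 integrin alpha genes, 7 integrin beta genes and 23 genes of cytoplasmic focal adhesion proteins. Ptk2 and Nedd9 had no such probe set in the table used here and have no value. Each gene was read from the probe set with the highest mean signal over all 6 arrays, among probe sets assigned to that gene alone.

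The cells were mouse embryonic stem cells of the Oct4-Gip line, a reporter line in which Oct4 regulatory sequences drive a fluorescent protein and a drug resistance gene, grown in serum with LIF. In 1 group, 60000 cells were transfected with 800 ng of esiRNA against the long noncoding RNA Panct1. EsiRNA is long double-stranded RNA cut by an enzyme into a mixture of silencing fragments. The other group received one against Luciferase, which these cells do not make. RNA was taken 72 hours later, and each group has 3 arrays. Depletion of Panct1 was not assessed here, so the labels are not checked through the targeted RNA, and the arrays cover 1 cell line and 1 esiRNA against Panct1. Array medians lay between 6.07 and 6.09 on the log2 scale, and arrays correlated at 0.997 to 0.998 within groups and at 0.991 to 0.993 between them. The 10 pluripotency markers listed for these cells all had mean signals of 10.45 or more.

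Outside the cell, integrins bind laminins, collagens, fibronectin and other ligands. Inside, talin and kindlin bind the beta tail, the complex of ILK, PINCH and parvin and the FAK-Src kinases assemble on it, and vinculin, filamin, alpha-actinin and LIM domain proteins connect the plaque to actin. In embryonic stem cells integrins are known for holding the cells to the laminin and serum proteins of the dish, and the LIM proteins of the plaque are known to gather where actin fibres are under tension.

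After Panct1 knockdown, genes of the cytoplasmic plaque rose more often than they fell. Of the 40 measured genes, 18 rose and 2 fell in limma at an adjusted p under 0.05, where 12.9% of all genes rose, 11.3% fell and 24.2% changed either way. The 40 genes were chosen with earlier results of these data known, so their shares are not independent of the data. The 18 that rose were 4 of 10 alpha genes, 1 of 7 beta genes and 13 of 23 cytoplasmic genes, and the 2 that fell were the beta gene Itgb7 and the tensin gene Tns3. The median log2 difference was 0.33 for the cytoplasmic genes, 0.10 for the alpha genes and 0.05 for the beta genes, against -0.02 over all genes. For all 20 genes that changed, the 3 knockdown arrays lay wholly on one side of the 3 control arrays. The same held for all 41 genes that changed in the further lists below, so it adds little to the call itself. Including genes that missed the threshold, 24 of the 40 had no overlap between knockdown and control arrays, against 38.3% of all genes. The cytoplasmic genes all had mean signals of 6.58 or more, and the shares of all genes were not matched to them for signal. Differences were mostly below 2-fold: Itga8, Csrp1, Fhl1 and Itga3 passed that size. The arrays read RNA of whole cultures, so fewer cells of a type and less RNA per cell cannot be told apart.

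**Figure D1:**
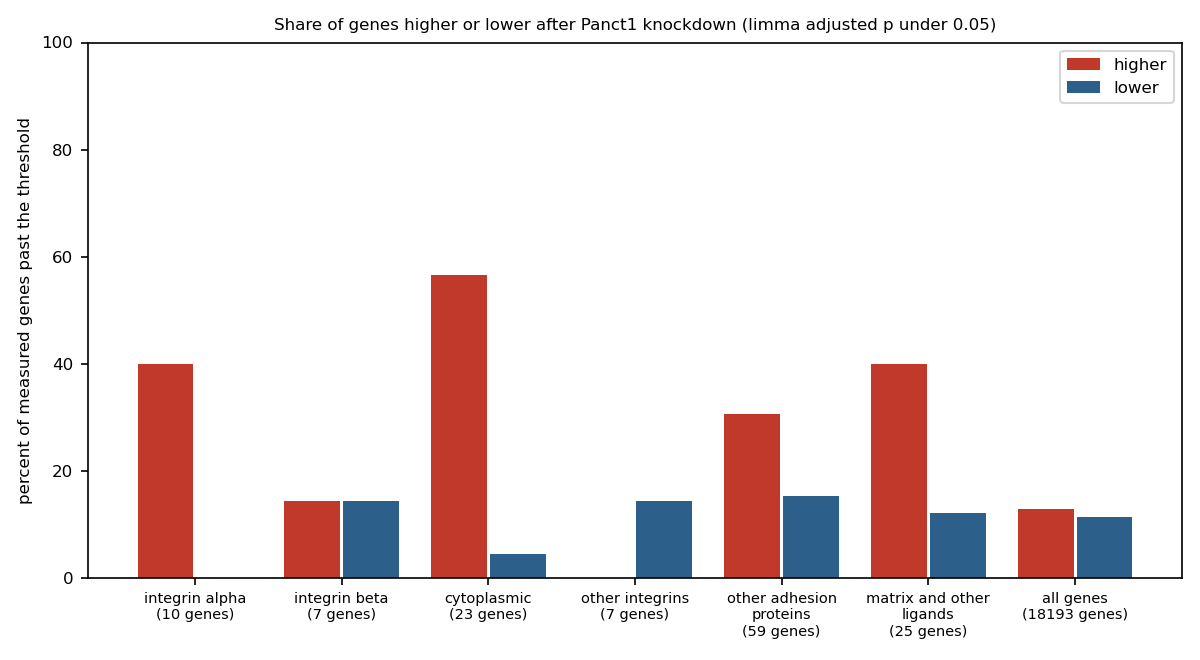
Percent of measured genes past the threshold (limma adjusted p under 0.05, vertical axis) as higher (red) or lower (blue) in knockdown, for the 3 classes of integrin and focal adhesion genes, 3 further lists and all 18193 genes. The cytoplasmic genes were higher in 56.5% and lower in 4.35%, beside 12.9% and 11.3% of all genes. The genes and lists were chosen with earlier results of these data known, and all genes were not matched to them for signal.

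Among the alpha subunits, the largest difference was in Itga8, whose protein pairs with that of Itgb1 and binds nephronectin. Signals are log2 values, given here and below in the order of replicates 1, 2 and 3. Itga8 read 7.24, 7.38 and 7.46 in knockdown and 5.83, 5.89 and 6.17 in control. Every knockdown array thus lay more than the spread of either group above the controls, and the gene rose 2.63-fold (log2 difference 1.40, SE 0.10; limma adjusted p = 3.17e-05). Itga3, which encodes a laminin receptor subunit of epithelia, read 9.07, 9.67 and 9.66 in knockdown and 8.36, 8.08 and 8.45 in control. It rose 2.25-fold (log2 difference 1.17, SE 0.16; adjusted p = 0.00103 in limma), and knockdown replicate 1 was its lowest knockdown array.

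Itgav encodes the alpha subunit that joins several beta subunits and binds RGD sequences in vitronectin and fibronectin. It read 10.25, 10.16 and 9.91 in knockdown against 9.48, 9.53 and 9.63 in control, and rose 1.47-fold (adjusted p = 0.00269 in limma). Itga1, a collagen receptor subunit, read 4.71, 4.89 and 5.21 in knockdown and 4.44, 4.15 and 3.99 in control. Its control mean of 4.19 lay below the lower quartile of the arrays (4.65 to 4.70), so its 1.67-fold rise (adjusted p = 0.00565 in limma) was taken from dim control signals.

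The other 6 alpha genes did not pass the threshold, with differences between -0.13 and 0.18. Itga6, a laminin receptor subunit with the highest mean signal of the alpha probe sets, read 11.27, 11.27 and 11.23 in knockdown and 11.31, 11.28 and 11.38 in control. All 3 knockdown arrays were below the controls, but by little: the 95% interval of the difference ran from -0.21 to 0.07. Itga5, the fibronectin receptor subunit, differed by -0.13, with an interval of -0.31 to 0.04. Itga7, another laminin receptor subunit, differed by 0.18 and passed only without Panct1 knockdown replicate 1 (limma adjusted p = 0.036; 0.036 to 0.344 over all settings). Itga2, Itga4 and Itga9 differed by -0.02, 0.02 and -0.05. Array weights alone gave a call for Itga5, as lower (adjusted p = 0.0499; 0.0499 to 0.803 over all settings).

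**Figure D2:**
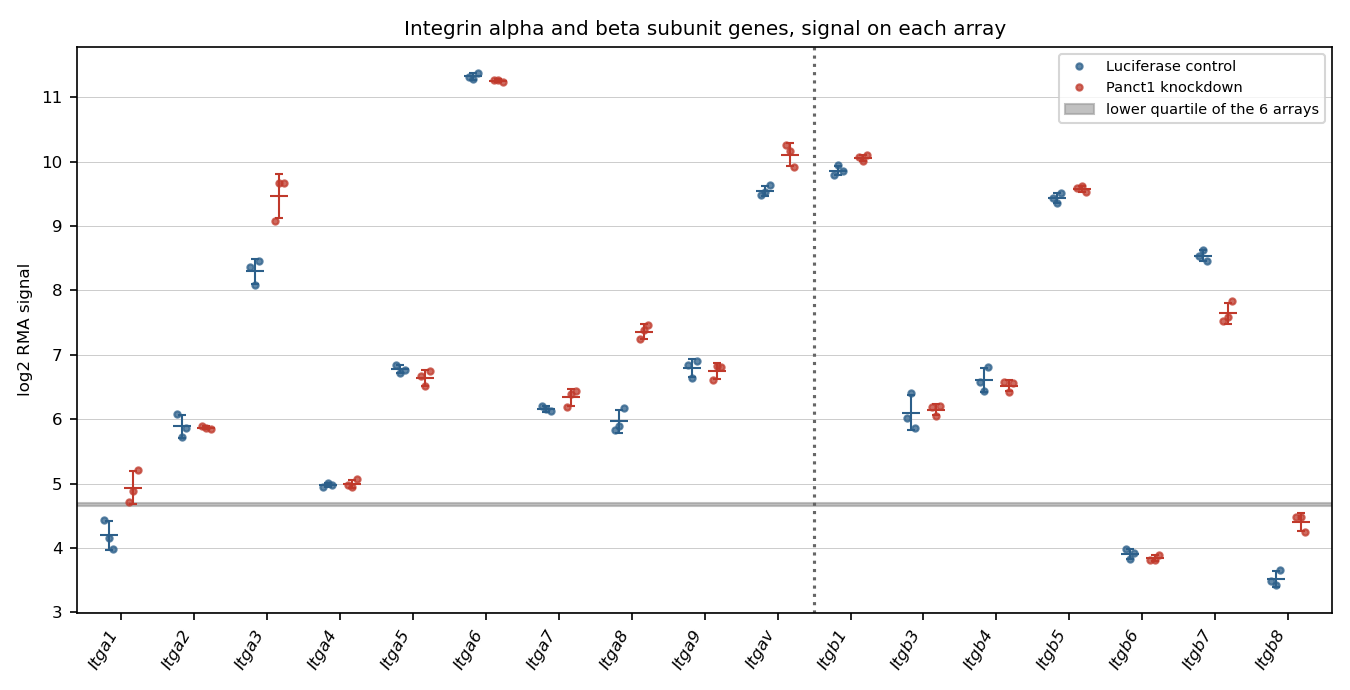
Log2 RMA signal (vertical axis) of the 10 alpha genes (left of the dotted line) and 7 beta genes on each array. Points are arrays, horizontal ticks group means and bars SD (n = 3 per group); the grey band marks the lower quartile of the arrays. Itga8, Itga3, Itgav and Itga1 lie higher in knockdown, Itgb7 lies lower, and both groups of Itgb6 and Itgb8 lie under the band.

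Of the 7 beta genes 1 rose and 1 fell, 14.3% each, near the 12.9% and 11.3% of all genes. Itgb7, whose protein pairs with the alpha4 or alphaE subunit on lymphocytes, read 7.52, 7.58 and 7.83 in knockdown and 8.54, 8.63 and 8.45 in control. All knockdown arrays were lower, and the log2 difference was -0.90, a fall with an SE of 0.09 (adjusted p = 0.000203 in limma). Of its partners, Itga4 differed by 0.02 and Itgae, from the list of other integrins, by 0.04, and neither passed. Itgb8, which with the Itgav protein binds latent TGF-beta, read 4.48, 4.48 and 4.24 in knockdown and 3.48, 3.42 and 3.66 in control. It rose 1.84-fold (adjusted p = 0.000220 in limma), although both of its means lay below the lower quartile of the arrays.

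Itgb1 encodes the common beta subunit, the partner of most alpha chains listed here. It read 10.07, 10.01 and 10.10 in knockdown and 9.79, 9.94 and 9.85 in control. The groups did not overlap, yet the difference of 0.20 (95% interval 0.05 to 0.35) missed the threshold (adjusted p = 0.0594 in limma). It passed in 4 of 16 other settings, with adjusted p ranging from 0.0365 to 0.818, and 1 of the 4 left out Luciferase control replicate 2 (0.0485). Itgb5, an RGD-binding partner of Itgav, differed by 0.14 without passing, and its 4 probe sets differed by 0.13 to 0.21. Itgb3, Itgb4 and Itgb6 differed by 0.05, -0.09 and -0.07, and both means of Itgb6 were dimmer than the lower quartile.

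Of the genes whose proteins bind the integrin tail or talin, 1 of 4 rose, where 12.9% of all genes rose. Tln1 and Tln2, the talins, differed by 0.15 and -0.19, and Fermt2, the kindlin of most adherent cells, by 0.03, with 95% intervals of -0.05 to 0.35, -0.40 to 0.02 and -0.16 to 0.21. None of these 3 passed. Vcl encodes vinculin, which binds stretched talin and strengthens its link to actin. It read 11.21, 11.22 and 11.15 in knockdown and 10.24, 10.23 and 10.39 in control. The groups were well apart, and Vcl rose 1.87-fold (log2 difference 0.91, SE 0.07; limma adjusted p = 4.05e-05).

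In the ILK-PINCH-parvin complex, Parva, the actin-binding alpha-parvin, read 7.06, 7.03 and 7.12 in knockdown and 6.14, 6.23 and 5.87 in control. It rose 1.99-fold (adjusted p = 0.000134 in limma). Ilk, the pseudokinase at the centre of the complex, read 9.11, 9.13 and 9.13 against 8.78, 8.75 and 8.84, and its small rise of 1.26-fold was clear of the spread (adjusted p = 0.00375 in limma). Lims1, which encodes PINCH, read 9.88, 9.90 and 9.77 in knockdown and 9.68, 9.42 and 9.87 in control. Its groups overlapped, and the difference of 0.19 did not pass.

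Of the kinase Src and its scaffolds, Src read 8.56, 8.71 and 8.64 in knockdown and 8.37, 8.11 and 8.39 in control, a rise of 1.27-fold (adjusted p = 0.0205 in limma). Its call was lost without Panct1 knockdown replicate 2 or 3 (adjusted p = 0.0766 and 0.0534) and without cross-hybridising probe sets (0.0658), in a range of 0.00669 to 0.0766 over all settings. Bcar1, the docking protein p130Cas, read 10.72, 10.80 and 10.86 against 10.56, 10.48 and 10.61, and rose by 0.24 on the log2 scale (adjusted p = 0.0305 in limma). Its call did not survive the loss of Panct1 knockdown replicate 2 (adjusted p = 0.0938) or 3 (0.0906), or of Luciferase control replicate 1 (0.0817) or 2 (0.0916). Leaving out cross-hybridising probe sets (0.141) or adjusting for every probe set (0.0544) ended it too, and the range over all settings began at 0.0113. Pxn, the scaffold paxillin, differed by -0.04 (95% interval -0.27 to 0.19) and did not pass.

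Of the 4 actin crosslinkers, the filamins rose and the alpha-actinins did not pass. Flna, the main filamin of nonmuscle cells, read 10.38, 10.65 and 10.63 in knockdown and 10.04, 9.70 and 10.18 in control, and rose 1.49-fold (adjusted p = 0.00989 in limma). Flnc, the muscle filamin, read 8.30, 8.59 and 8.70 against 8.14, 7.99 and 8.02, and rose 1.39-fold (adjusted p = 0.00938 in limma). The alpha-actinins Actn1 and Actn4 differed by 0.16 and -0.02 without passing. Actn4, whose probe set had the highest mean signal of the cytoplasmic genes, read 11.97, 12.13 and 12.08 in knockdown and 12.17, 11.89 and 12.17 in control, so its arrays overlapped. Of the tensins, which link integrin tails to actin in more mature adhesions, Tns3 read 11.74, 11.70 and 11.74 against 12.08, 12.01 and 12.02 and fell by 0.31 (limma adjusted p = 0.00528). Tns1 differed by 0.03. Whether the filamins differed from the alpha-actinins, or Tns3 from Tns1, was not tested.

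The last group held 6 LIM domain proteins and Vasp. Of these 7 genes 6 rose and 0 fell, with a median difference of 0.84, where 12.9% of all genes rose. The LIM domain genes Lims1 and Pxn, placed above by their complexes, did not pass. LIM domain genes outside this group, given below, went both ways. Whether this group differed from the others was not tested. Csrp1, a LIM protein that bundles actin in smooth muscle, read 10.86, 10.70 and 10.52 in knockdown and 9.24, 9.59 and 9.35 in control. It rose 2.46-fold (log2 difference 1.30, SE 0.11; limma adjusted p = 7.80e-05). Fhl1, a four-and-a-half LIM protein of muscle, read 10.72, 10.63 and 10.57 against 9.38, 9.50 and 9.49 and rose 2.27-fold (adjusted p = 1.04e-05 in limma). In both genes the gap between the groups was wider than the spread within either.

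Fhl2, a LIM coregulator of the same family, read 8.03, 7.78 and 7.99 in knockdown and 7.17, 7.22 and 7.15 in control, and rose 1.69-fold. Zyx, zyxin, which moves to strained actin fibres, read 8.24, 8.54 and 8.50 against 7.57, 7.66 and 7.77 and also rose 1.69-fold. Lpp, a zyxin relative, read 9.31, 9.83 and 9.66 against 8.91, 8.51 and 8.87 and rose 1.79-fold. Pdlim7, a PDZ and LIM protein of actin fibres, read 9.60, 9.85 and 9.91 against 8.93, 8.80 and 9.07 and rose 1.81-fold. The adjusted p-values of these 4 genes in limma lay between 0.000213 and 0.00327, and in each the lowest knockdown array stood above the highest control array.

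Vasp, the actin polymerase that zyxin recruits, was the exception in this group. It read 10.79, 11.07 and 11.07 in knockdown and 10.78, 10.50 and 10.80 in control, so knockdown replicate 1 lay among the controls. The difference of 0.28 did not pass (adjusted p = 0.0921 in limma), but did without Panct1 knockdown replicate 1 (0.0316; 0.0287 to 0.252 over all settings).

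**Figure D3:**
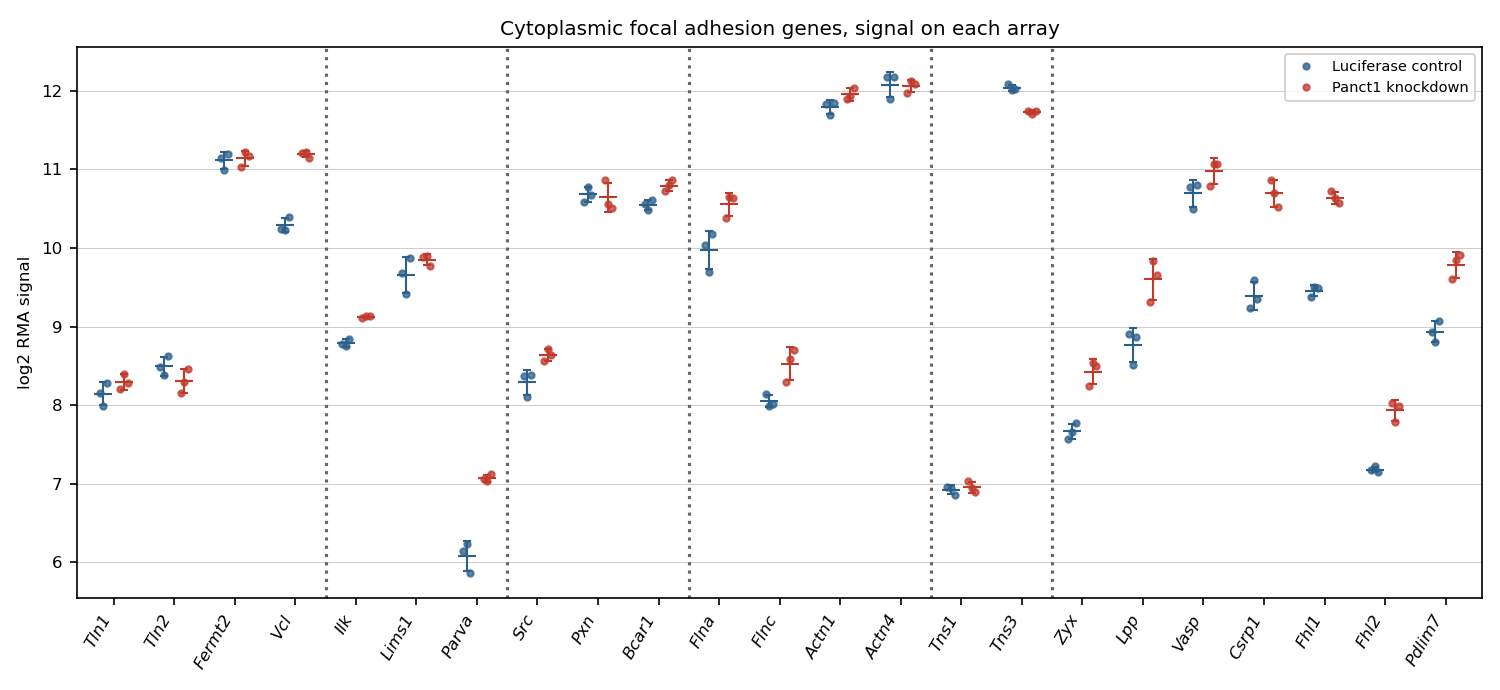
Log2 RMA signal (vertical axis) of the 23 cytoplasmic genes on each array, ordered by role with dotted lines between roles. Points are arrays, horizontal ticks group means and bars SD (n = 3 per group). Vcl, Parva, Csrp1 and Fhl1 show wide gaps between knockdown and control, and Tns3 lies lower in knockdown.

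**Figure D4:**
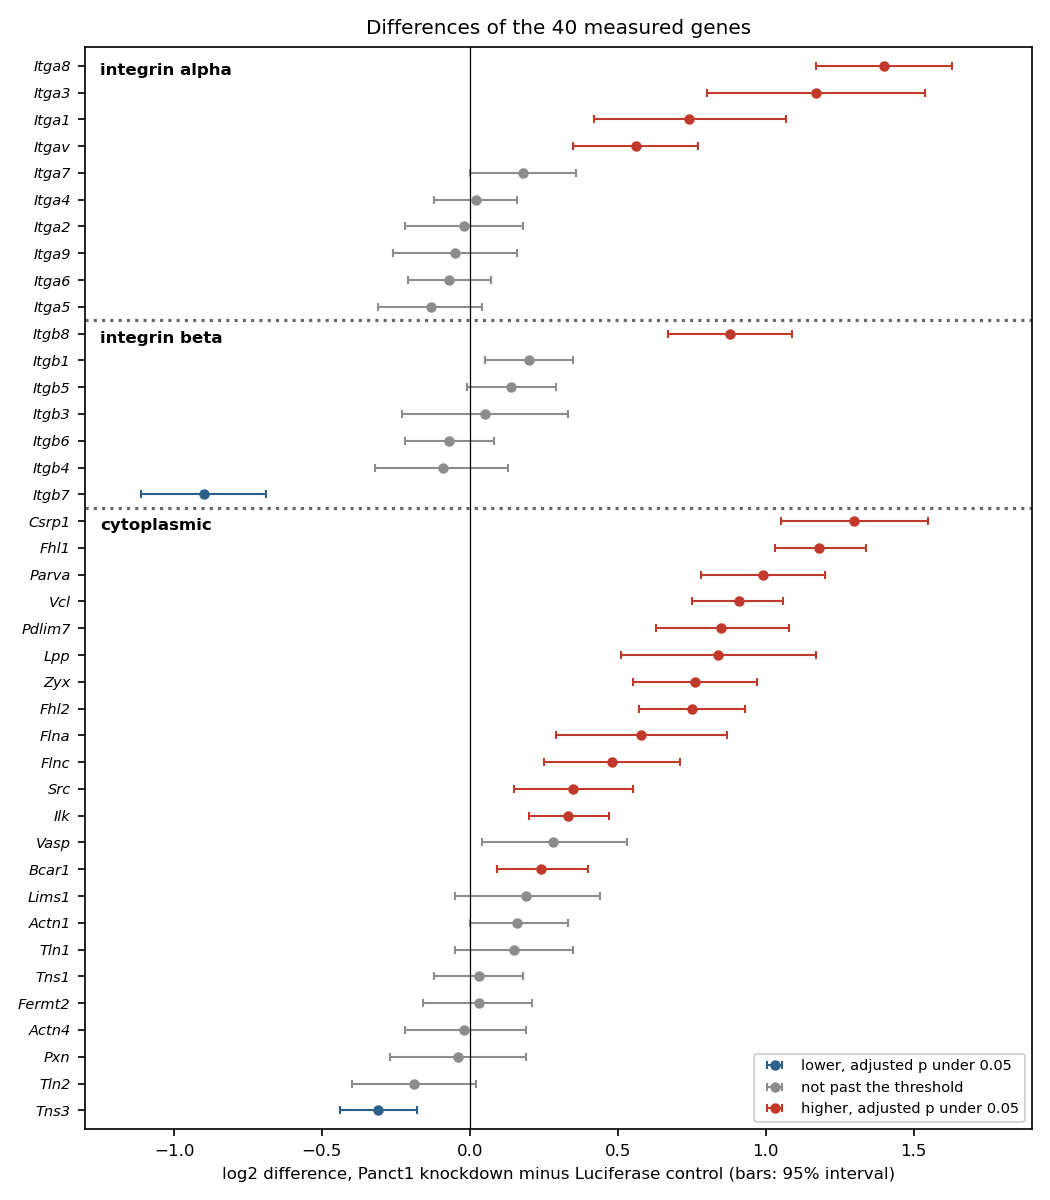
Log2 difference of knockdown minus control (horizontal axis) for the 40 measured genes, by class, with the 95% interval of the limma fit; red marks genes that rose, blue those that fell and grey those not past the threshold. The cytoplasmic genes run from -0.31 for Tns3 to 1.30 for Csrp1.

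The 40 genes were read by 102 probe sets, and 30 of the genes had more than 1. Adjusted over all probe sets, where 14.6% changed, the sets not used above for the genes that changed numbered 26, of which 9 were higher and 0 lower. Lpp had 8 probe sets, of which 6 rose, by 0.42 to 1.49. The difference of 0.84 in the set used above was the fourth highest of the 8. Each set of Csrp1 (1.30 and 1.22), Parva (0.99 and 1.46) and Itga8 (1.40 and 0.33) rose. For Fhl1, Vcl and Itga1 the second set differed by -0.02, 0.16 and -0.08 with control means of 4.45, 4.84 and 3.78, near or below the lower quartile.

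Itgav was the least uniform: 4 further sets differed by -0.27 to 0.09 and none passed, and 3 of these lay below the lower quartile. The further sets of Itga3 (0.30 and 0.15), Zyx (0.23) and Tns3 (-0.01) did not pass either. For Zyx the further set was about as bright as the set used, with means of 7.97 and 8.05, and its arrays overlapped. With the mean of a gene's probe sets in place of its highest, the differences became 0.06 for Itgav (adjusted p = 0.485 in limma), 0.33 for Itga1 (0.0745) and -0.16 for Tns3 (0.147), none of them a call. The same change gave 0.54 for Itga3, 0.86 for Itga8, 0.53 for Vcl, 0.58 for Fhl1, 0.50 for Zyx and 0.56 for Pdlim7, all still higher. Among genes that did not pass, 1 further set each passed for Itga4 (0.26), Itgb1 (0.24) and Itga9 (-0.43).

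**Figure D5:**
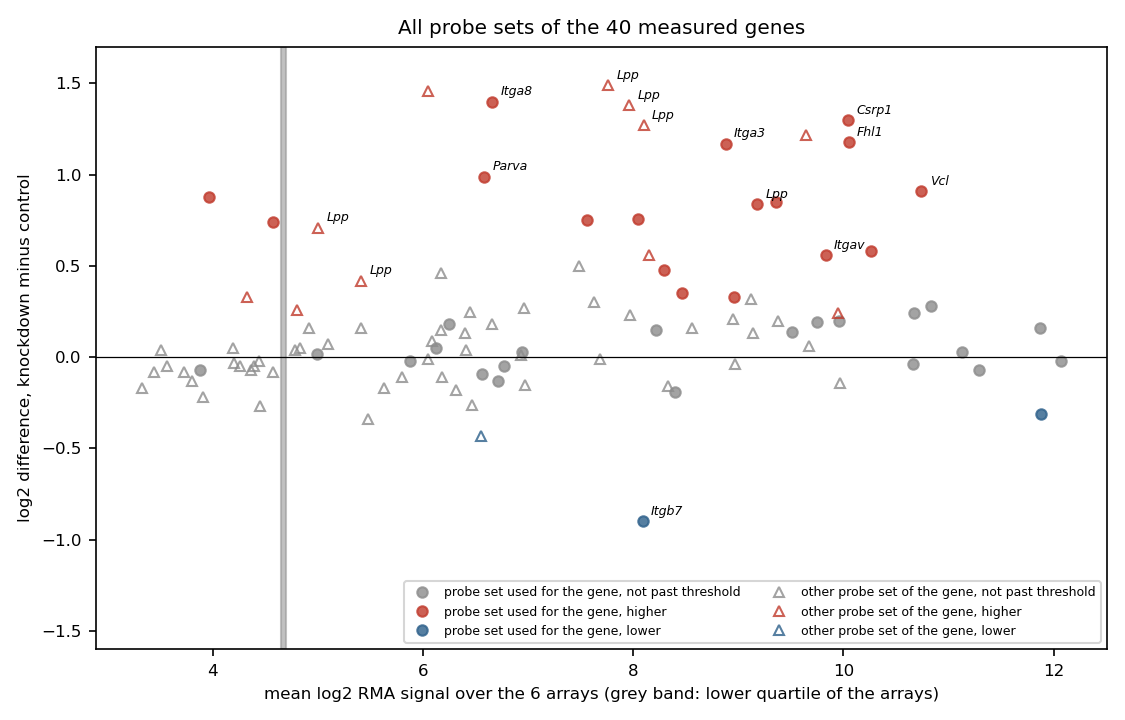
Log2 difference of knockdown minus control (vertical axis) against mean log2 signal over 6 arrays (horizontal axis) for all 102 probe sets of the 40 genes. Filled circles are the sets used, open triangles the others, coloured by their call adjusted over all probe sets; the grey band is the lower quartile of the arrays. Left of the band 3 sets rose, of Itgb8, Itga1 and Itga8, and Lpp has 6 sets that rose.

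Vinculin and FHL genes are textbook targets of serum response factor, which binds the CArG box. The 250 bases before each gene start were searched on both strands for the CArG box, for the AP-1 letters TGANTCA and for the TEAD letters GGAATG, and no match of one overlapped that of another. RefSeq start sites of build GRCm38.p6 were found for 34 of the 42 genes, 45 sites in all. A CArG box stood before 6 of these sites, in 5 genes, against 1.47% of 32851 promoters in the table. It was found in 3 of 17 genes that rose, Vcl, Fhl1 and Fhl2, and in 2 of 14 that did not pass, Fermt2 and Itgb6. These 6 sequences are shown because they are the only ones of the set with the box, which is in capitals. Each reads 5′ to 3′ on the gene's strand and ends at the base before the start.
Vcl: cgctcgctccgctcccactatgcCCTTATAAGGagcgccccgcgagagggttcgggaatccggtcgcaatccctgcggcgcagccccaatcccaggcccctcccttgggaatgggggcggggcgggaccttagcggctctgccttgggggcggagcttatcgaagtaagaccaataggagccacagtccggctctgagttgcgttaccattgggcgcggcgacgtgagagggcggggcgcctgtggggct
Fhl1: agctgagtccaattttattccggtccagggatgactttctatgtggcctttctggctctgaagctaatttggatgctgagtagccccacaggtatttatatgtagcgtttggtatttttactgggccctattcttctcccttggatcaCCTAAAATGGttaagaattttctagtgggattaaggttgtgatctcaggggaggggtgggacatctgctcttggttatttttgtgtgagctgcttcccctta
Fhl2, more upstream start: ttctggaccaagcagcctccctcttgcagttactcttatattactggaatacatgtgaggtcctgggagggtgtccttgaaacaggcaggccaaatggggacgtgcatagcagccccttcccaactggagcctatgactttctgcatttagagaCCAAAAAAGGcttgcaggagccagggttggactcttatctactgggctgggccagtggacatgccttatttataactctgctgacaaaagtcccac
Fhl2, more downstream start: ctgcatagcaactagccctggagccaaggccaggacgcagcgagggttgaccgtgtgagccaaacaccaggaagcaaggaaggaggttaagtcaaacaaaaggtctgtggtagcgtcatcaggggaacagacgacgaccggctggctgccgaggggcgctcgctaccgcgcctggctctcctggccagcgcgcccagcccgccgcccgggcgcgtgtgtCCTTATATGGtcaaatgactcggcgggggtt
Fermt2: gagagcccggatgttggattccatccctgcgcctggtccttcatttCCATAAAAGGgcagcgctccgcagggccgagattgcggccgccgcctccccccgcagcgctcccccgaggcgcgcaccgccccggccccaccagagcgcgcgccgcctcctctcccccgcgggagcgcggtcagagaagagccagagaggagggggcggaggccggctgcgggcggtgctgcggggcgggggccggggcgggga
Itgb6: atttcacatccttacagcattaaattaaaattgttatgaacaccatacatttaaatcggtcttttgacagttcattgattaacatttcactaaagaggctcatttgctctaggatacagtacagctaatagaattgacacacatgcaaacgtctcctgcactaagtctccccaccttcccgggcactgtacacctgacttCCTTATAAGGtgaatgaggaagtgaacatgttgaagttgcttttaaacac

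The Vcl stretch is chr14:20929148-20929397 on the plus strand, with its box 227 to 218 bases before the start. Fhl1 is at chrX:56779433-56779682 on the plus strand (box at 102 to 93 bases). Fhl2 has boxes at chr1:43196762-43197011 (96 to 87 bases) and at chr1:43163962-43164211 (31 to 22 bases), both on the minus strand. Fermt2 is at chr14:45530066-45530315 (204 to 195 bases) and Itgb6 at chr2:60673694-60673943 (50 to 41 bases), also on the minus strand. The AP-1 letters stood before 2 of the 45 sites, those of Zyx and Actn4, against 6.75% of all promoters. The TEAD letters stood before 6 sites, those of Vcl, Lpp, Flna, Flnc, Actn4 and Itgb1, against 12.6%. These matches describe letters, and binding at them was not measured.

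Other genes of the same machinery changed in both directions. Of 59 further adhesion proteins measured, 18 rose (30.5%) and 9 fell (15.3%), with a median difference of 0.01. Over all genes 12.9% rose and 11.3% fell, so the share that fell was near that of all genes. Pdlim2, an actin-bound PDZ and LIM protein, rose 2.40-fold, Tes, the zyxin-binding testin, 2.18-fold and Pdlim4 2.03-fold. Kank1, a talin-binding protein at the adhesion rim, rose 1.76-fold and Cav1, caveolin, 1.62-fold. The largest falls were in Palld, the actin bundler palladin, which fell by 0.72, Dlc1, which fell by 0.70, and Ldb3, a muscle PDZ and LIM protein, which fell by 0.65. Parvb, the paralogue of Parva, fell by 0.42 and the Src family kinase gene Yes1 fell by 0.37. The adjusted p-values of these 10 genes in limma ran from 3.48e-05 to 0.0279. Parvb missed the threshold when knockdown replicate 2 (0.0735) or 3 (0.0657) or control replicate 1 (0.084) or 3 (0.0752) was left out, from a lowest value of 0.00303 over all settings. Yes1 missed it when knockdown replicate 3 or control replicate 1 or 3 was left out (0.0107 to 0.0887 over all settings). LIM domain genes of this list went both ways. Besides Pdlim2, Tes and Pdlim4, the genes Pdlim3, Pdlim5, Limd1 and Tgfb1i1 rose, by 0.53, 0.19, 0.37 and 0.37. Their adjusted p-values in limma were 0.00578, 0.0471, 0.0101 and 0.0403, so Pdlim5 and Tgfb1i1 passed narrowly. Besides Ldb3, Csrp2 fell by 0.35 and Wtip fell by 0.34 (adjusted p = 0.00679 and 0.03 in limma). Lims2, Trip6, Ajuba, Fblim1, Pdlim1, Csrp3 and Fhl3 did not pass.

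Of 7 other integrin genes, mostly of blood cells, Itgal alone changed, and it fell by 0.54 (limma adjusted p = 0.0066). That is 14.3% of this list, where 24.2% of all genes changed. Among 25 matrix proteins and other ligands 10 rose and 3 fell. Thbs1, thrombospondin, a ligand of several integrins, rose 4.35-fold from 5.93 ± 0.14 (SD, n = 3) to 8.05 ± 0.13. Efemp1, Ccn1, Ccn2 and Col3a1 rose by 3.17, 1.59, 0.84 and 0.63 on the log2 scale, from control means of 4.07 and 4.50 for Efemp1 and Col3a1 that lay below the lower quartile. The adjusted p-values of these 5 genes in limma lay between 8.43e-07 and 0.00557. Of the 6 laminin chains on this list that were measured, 3 fell and 3 rose, and laminins are bound by Itga3 and Itga6 receptors. Laminin chains outside the list were not read. Lamc1 fell by 0.77, Lama3 fell by 0.54 and Lama1 fell by 0.50 (adjusted p up to 0.00718 in limma). Lama5, Lamb3 and Lamb1 rose by 0.44, 0.43 and 0.26 (adjusted p = 0.00768, 0.0351 and 0.0434 in limma). Lamb3 missed the threshold when knockdown replicate 2 (0.104) or 3 (0.102) or control replicate 1 (0.103) or 3 (0.107) was left out. Lamb1 missed it when any array but knockdown replicate 1 was left out (0.051 to 0.133). Its call was also lost without cross-hybridising probe sets (0.254), with the mean of probe sets (0.141) and adjusted over all probe sets (0.0719). The last of these ended the call of Lamb3 too (0.056). Fn1, the main ligand of the Itga5 receptor, differed by -0.07 and did not pass.

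Markers of several cell states were listed too, and 5 genes of the further lists above are also on a marker list. The counts below stand beside 12.9% of all genes that rose and 11.3% that fell. Of 11 trophectoderm markers 9 rose and 0 fell, and their mean signal was 7.43 to 7.50 on the control arrays and 8.67 on each knockdown array. Of 10 smooth muscle markers 4 rose, Tagln, Cnn1, Acta2 and Smtn, and Synpo2 fell. Their mean signal was 6.68 to 6.80 in control and 7.15 to 7.25 in knockdown, while the defining Myh11 and Myocd differed by -0.06 and 0.00. Of 11 fibroblast markers 3 rose, Col1a1, Col3a1 and Twist2, with means of 5.74 to 5.83 in control and 5.92 to 5.96 in knockdown. The share of this list that changed, 27.3%, was near the 24.2% of all genes. Lum and Fap were dimmer than the lower quartile throughout. Primitive endoderm markers rose in 2 and fell in 3 of 10 (6.53 to 6.54 and 6.38 to 6.60), and pluripotency markers fell in 7 and rose in 0 of 10 (12.49 to 12.60 and 12.29 to 12.32). The part of these markers in the differences of integrin and focal adhesion genes was not tested.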

How the data were processed

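Total RNA was measured on 6 Affymetrix arrays, 3 per group. Per the submitters' processing notes, the authors used GCOS 1.4 and RMA, and the deposited values are log2 signals with background corrected and arrays quantile-normalised, as RMA does. Which program ran RMA, and on which arrays together, is not given here. The number of arrays limits the precision, and signals of different probe sets were not compared as abundances.

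Of 45101 probe sets, 64 control sets were left out. Of the other 45037, 34945 had 1 gene symbol, 932 several and 9160 none listed, from a platform table. For 34741 the symbol was looked up by gene ID in a RefSeq table (GRCm38.p6). Differences were fitted per gene with limma 3.58.1 (lmFit, eBayes; R 4.3.3), group alone, two-sided, adjusted by Benjamini-Hochberg over 18193 genes, threshold 0.05, and the script was tested on simulated data. The rule names every listed gene. It gives array values for those past the threshold and for the probe set of highest mean signal in each class, and from each further list it names up to 5 rises and 5 falls. The array values of Lims1 and Vasp, and the other genes named in the further and marker lists, were picked with their values in view. The genes and lists were chosen with earlier results of these data known. Separate cultures are not stated for the replicates. The p-values reflect the spread among these 6 samples alone, and that spread may be technical. Alternatives were the replicate block, median centring, array weights, an intensity trend with robust variance, a second quantile normalisation, filters on dim or cross-hybridising probe sets, other uses of probe sets, leaving out each array and a 1.5-fold minimum.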

Additional observations from a re-analysis of the deposited data

How the results depend on the processing

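Of the 20 integrin and focal adhesion genes called, 12 kept their call in every alternative run in which they had a value. One of these, Itgb8, had no value without dim probe sets. The call was lost only with a 1.5-fold minimum for 3 (Ilk, Flna and Flnc), and elsewhere for 5 (Itga1, Itgav, Src, Bcar1 and Tns3). No called gene changed direction, and 5 others gained a call somewhere. With the mean of probe sets, 2 alpha genes were higher in place of 4. Array weights gave 1 alpha gene as lower and 2 beta genes as higher in place of 0 and 1, and an intensity trend with robust variance also gave 2 beta genes as higher. A 1.5-fold minimum, which removes smaller differences by construction, left 8 of 13 cytoplasmic genes higher and 0 of 1 lower, 10 of 28 other pathway genes higher and 4 of 13 lower, and 1227 of 4404 genes in all. Leaving out each array in turn gave 1 to 2 beta genes higher, 4 to 5 alpha genes and 11 to 14 cytoplasmic genes higher, and 3133 to 3986 genes in all.

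Replicate numbers did not pair the arrays: deviations from the group means of same-numbered arrays correlated at -0.187, -0.261 and -0.102 across genes, and no array correlated best with its own number. Positive correlations joined knockdown 1 to control 2 (0.273), knockdown 2 to control 3 (0.284) and knockdown 3 to control 1 (0.215). Whether arrays shared a batch in that order was not tested. With the replicate number as a block, 12 cytoplasmic genes rose in place of 13 and 3496 genes changed in all. Bcar1 lost its call with the block (adjusted p = 0.0723 in limma), as did Yes1 (0.0507) and Lamb1 (0.0794). Other counts of calls stayed within 1.5 times of those reported, and the causes of the changes were not tested. The median of all genes shifted by less than 0.1 in every setting. Dim probe sets limit what can be read of Itgb6, Itgb8 and Itga1.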
